A study of Mus musculus with 6 samples.

Results

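Nascent transcription was described in control muscle stem cells (MuSCs, also called satellite cells), the stem cells that lie on muscle fibres and rebuild them after injury. The genes were those of the PRO-seq table whose TSS region and gene body each averaged at least 0.5 over the 3 Ctrl libraries. Of 14546 genes listed, 12660 met this rule. The mean of the TSS region was under 0.5 in 1542 genes, that of the gene body in 654, and both were in 310. Col4a5 lay just inside (means of 0.56 for the TSS region and 0.50 for the gene body) and Oasl2 just outside (0.497 and 1.17).

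The series holds 6 PRO-seq libraries of mouse MuSCs, 3 of them Ctrl and 3 of a mutant that lacks Kmt5b in MuSCs, and only the Ctrl libraries were used here. The Ctrl genotype is Pax7CreERT/Suv4-20h1WT, where Suv4-20h1 is an older name of Kmt5b. The tamoxifen-inducible Cre is driven by the Pax7 locus and is carried by all groups of the series. Following the study's methods, tamoxifen-treated adult mice on a C57BL/6 background were used, and the MuSCs were purified with magnetic beads and expanded in culture with LIF and bFGF. The cells were therefore proliferating myogenic cells in a dish, and not quiescent stem cells on the fibre. The study calls the replicates biological, and the labels do not say whether each came from a separate animal. The p-values measure the spread between these samples.

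PRO-seq extends RNA polymerases that are already engaged by a biotin-labelled nucleotide, so that reads mark nascent RNA at the polymerase and not the stock of mature mRNA. At most genes RNA polymerase II stops shortly after initiation, held by the factors DSIF and NELF, and is released into the gene body by the kinase P-TEFb. The ratio of reads near the start to reads in the gene body, the pausing index, is used to describe that step. A high index means much signal near the start per signal further on, and it does not by itself tell slow release from frequent termination near the start. In myogenic cells Pax7 and Myf5 mark the stem and progenitor state, Myod1 drives commitment, and Myog and the sarcomere genes mark differentiation.

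The TSS region is the first 400 nt of 1 isoform per gene and is given in RPM, and the gene body is the rest of the isoform and is given in TPM. Since each region was scaled to its own total, a pausing index of 1 has no meaning of its own, and genes were set against the median gene of the same library. Reads recovered from the values came to 2513863, 1064744 and 3240726 in the TSS regions of the 12660 genes in Ctrl 1, 2 and 3, and to 15837802, 13280235 and 13923627 in the gene bodies. The median gene had 93, 40 and 108 reads in the TSS region and 472, 378 and 419 in the gene body. Ctrl 3 stood apart in several values. The Y-linked genes Ddx3y, Eif2s3y, Kdm5d and Uty lay between 0 and 0.23 TPM in the gene body in Ctrl 1 and Ctrl 2, and between 4.74 and 7.29 TPM in Ctrl 3. For 407 X-linked genes the median gene body level was 0.548, 0.569 and 0.567 times that of the autosomal genes in Ctrl 1, 2 and 3.

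The markers of MuSCs were transcribed in all 3 libraries. Pax7, the paired-box factor that maintains satellite cells, gave 97.6, 68.4 and 53.4 RPM at its TSS region and 53.7, 36.1 and 26.0 TPM over its gene body (Ctrl 1, 2 and 3). It lies on the minus strand at chr4:139740676-139833007 (GRCm38). Of the 400 nt of its TSS region 181 are exonic and 85 coding, and the remainder is intron. Myf5, a myogenic bHLH factor of progenitors, gave 95.9, 67.2 and 32.4 RPM and 91.2, 63.7 and 46.6 TPM at chr10:107482908-107486134. Both genes were highest in Ctrl 1 and lowest in Ctrl 3 in both regions. Myod1, the bHLH factor of commitment, was higher, with 720.2, 615 and 596 RPM and 1272, 1144 and 855 TPM, at chr7:46376474-46379099. In the gene body, where TPM is a level per length, Myod1 lay above Myf5 and Myf5 above Pax7 in each library, and the values of Pax7 and Myf5 overlapped between libraries. In bulk samples fewer cells of a type and less RNA per cell cannot be told apart.

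Markers of other cells differed in gene body level. The endothelial, fibro-adipogenic, lymphocyte and Schwann cell sums were low, and the macrophage, mural and mature fibre sums were higher. Of 8 endothelial markers 4 were listed and 2, Esam and Pecam1, met the rule, while Cdh5 gave 0 reads in the TSS region of all 3 libraries. The listed endothelial genes summed to between 10.8 and 17.2 TPM in the gene body, against 928 to 1417 TPM for Pax7, Myf5 and Myod1. Most of the latter sum was Myod1 (855 to 1272 TPM), and Pax7 alone gave 26 to 53.7 TPM. The listed fibro-adipogenic markers summed to between 14.9 and 30.3 TPM, with 4 of 8 meeting the rule and Pdgfra between 0.53 and 0.67 TPM. The listed lymphocyte markers, Cd79a and Cd3e, summed to 8.34, 8.31 and 25.4 TPM in Ctrl 1, 2 and 3. Cd79a, the 1 of 8 meeting the rule, gave 4.03, 3.78 and 4.12 TPM. Cd3e made up the rest, with 0 reads in every TSS region. The Schwann cell markers summed to between 21.7 and 30.9 TPM, with 5 of 8. Of 8 macrophage markers 2 met the rule. The listed macrophage markers summed to 350, 220.5 and 446 TPM in Ctrl 1, 2 and 3. Cd68, a lysosomal protein also made by other cells, gave 327, 214 and 402 TPM of this. The other marker meeting the rule and Itgam made up the rest, and Itgam had 0 reads in the TSS region of all 3 libraries. Of 8 mural markers 5 met the rule, and they summed to between 308 and 590.0 TPM, of which Acta2 and Notch3, both also expressed by myogenic cells, made up most. Of 12 genes of mature fibres 9 met the rule, with a sum of 1075 to 1982 TPM, but the adult fast myosins Myh2 and Myh4 did not. The part of other cells in the results was not tested.

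Levels of the TSS region and of the gene body followed each other across genes (Spearman's rho of 0.623, 0.667 and 0.630 in Ctrl 1, 2 and 3 over 12325 genes). These genes had reads in both regions of every library. The other 335 had a 0 in a TSS region (312 genes) or a gene body (45 genes), so no index was formed for them. They were mostly low, with medians of 0.83 RPM and 1.78 TPM. The middle gene gave 23.5, 24.1 and 21.2 RPM in the TSS region and 16.4, 17.2 and 14.8 TPM in the gene body. The top 1% of genes began at 393, 332 and 449 RPM and at 278, 276 and 271 TPM. Replicate libraries agreed more closely in the gene body (Pearson's r of log2 values from 0.937 to 0.966) than in the TSS region (0.910 to 0.932).

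**Figure D1:**
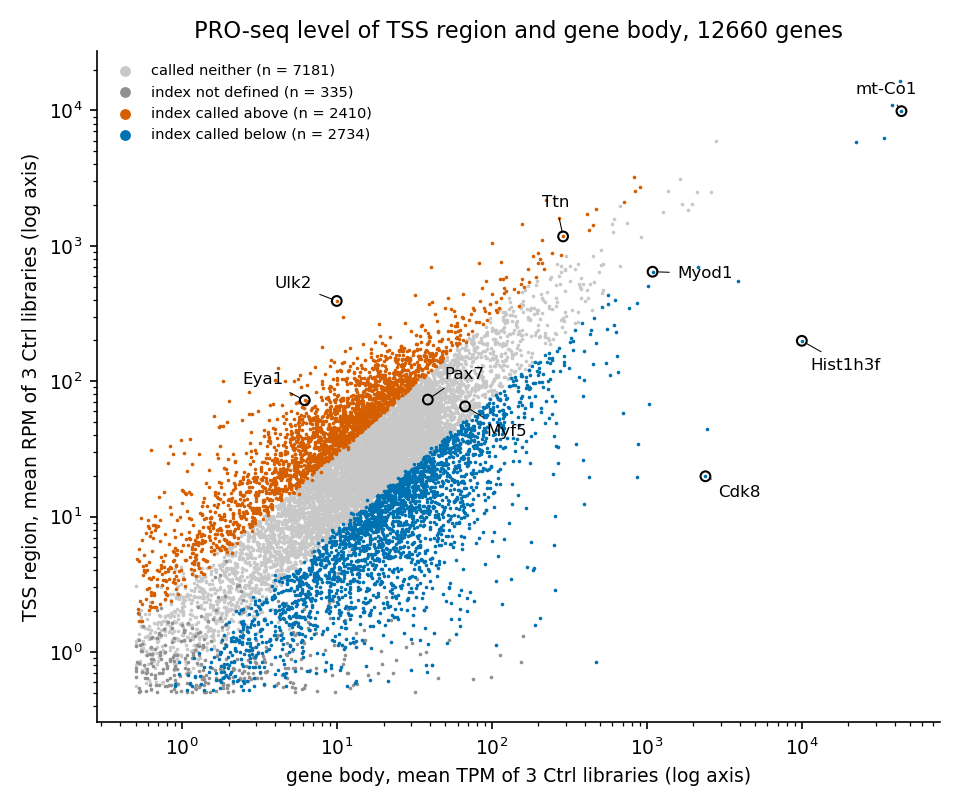
Mean TSS region RPM (vertical, log axis) against mean gene body TPM (horizontal, log axis) of 12660 genes over 3 Ctrl libraries, coloured by the call on the pausing index. Ulk2 and Eya1 sit far above the band of most genes, and Cdk8 and Hist1h3f far below it.

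The highest signals came from mitochondrial DNA and from histone, actin and translation genes. The mitochondrial polymerase, which has no promoter-proximal pausing of the nuclear kind, transcribes mt-Co1, mt-Cytb, mt-Nd2, mt-Nd4 and mt-Nd5. These took 5.64, 10.9 and 7.64% of the TSS region reads and 1.49, 1.36 and 2.29% of the gene body reads in Ctrl 1, 2 and 3. Among nuclear genes Hist1h1c, a linker histone made in S phase, was highest in the TSS region, with 7389, 5389.9 and 5119 RPM. Eef1a1, the elongation factor that brings tRNA to the ribosome, gave 3753, 2406 and 3577 RPM, and Actb, cytoplasmic actin, gave 3021, 2069 and 3053 RPM. Hist1h4d, a core histone, gave 3742, 2877 and 2670 RPM, and Tmsb10, an actin monomer binder, gave 2842, 2245 and 2551 RPM. In the gene body Hist1h3f (9004, 8123 and 12964 TPM) and Id3, an inhibitor of bHLH factors (4454, 2273 and 4891 TPM), had the highest means of the 3 libraries among nuclear genes. Hist1h1c (3437, 2421 and 2587 TPM) and Hist2h3c2 (3231, 1940 and 2588 TPM) followed. The order differed between libraries, and in Ctrl 2 Lars2 (3474 TPM) and Cdk8 (3153 TPM) exceeded Id3. Near-identical histone genes share reads, and a read that matched several places was kept at 1 of them at random, so levels of single histone genes are uncertain. The genes holding 50% of the nuclear TSS region reads numbered 1224, 1463 and 1072, and those holding 50% of the gene body reads 983, 927 and 1123.

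The median pausing index was 1.49, 1.45 and 1.51 in Ctrl 1, 2 and 3 (1.48 ± 0.0332, SD, n = 3). The middle 50% of genes ran from 0.760 to 2.67 in Ctrl 1, from 0.803 to 2.50 in Ctrl 2 and from 0.754 to 2.79 in Ctrl 3. Counted as reads per nt, without the separate scaling of the regions, the median density of the TSS region was 10.5, 5.53 and 13.97 times that of the gene body. The TSS region was denser than the gene body in 97.1, 95.4 and 97.3% of the 12325 genes. Per the methods, the listed isoform was the one with the highest average TSS region value. This choice favours dense TSS regions, and its part in the density ratio was not tested. The order of this ratio followed the TSS region reads of the libraries, which were fewest in Ctrl 2, and the scaled index varied far less between replicates.

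**Figure D2:**
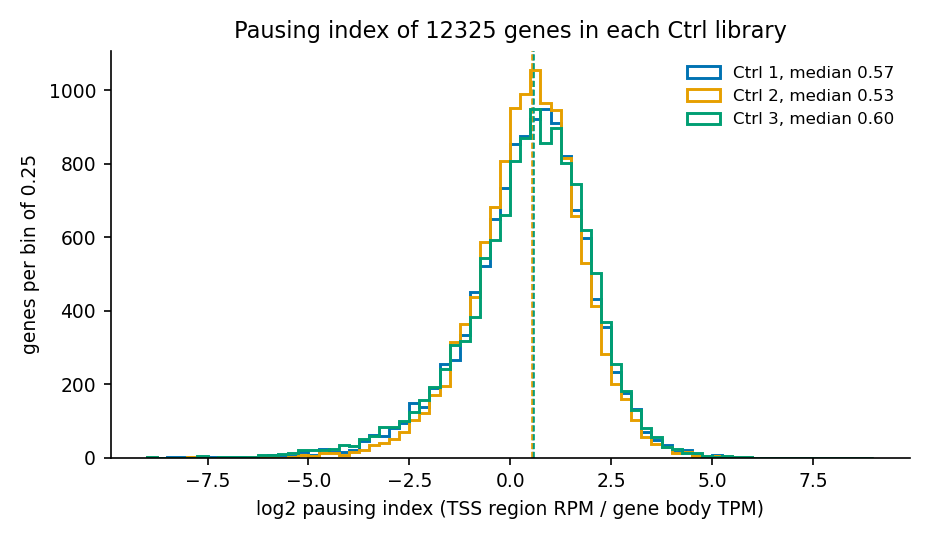
Number of genes per bin of log2 pausing index (TSS region RPM over gene body TPM) in Ctrl 1, 2 and 3, with each median as a dashed line at 0.57, 0.53 and 0.60. The 3 curves lie on each other, with a longer tail towards low indices.

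Each gene was then tested against the median of its library with limma on the log2 index. The index lay at least 2-fold above the median, at an adjusted p under 0.05, in 2410 of 12325 genes (19.6%). It lay at least 2-fold below in 2734 (22.2%). These shares are the background for all counts of genes called above or below. They varied with the lowest read count of a gene, which includes the TSS region that the index contains. With 1 to 9 reads 9.11% were called above and 46.3% below, and with 100 or more 38.1% and 7.00%. The index was on the same side of the median in all 3 libraries in 9454 genes (76.7%). Its SD over the 3 libraries had a median of 0.27 (log2) in genes with at least 100 reads in every region and library, and of 0.79 in genes with 1 to 9. The index agreed less well between Ctrl 2 and 3 (Pearson's r of the log2 index 0.822) than between Ctrl 1 and 2 (0.875) or 1 and 3 (0.876).

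Promoter sequences are shown for Pax7 and Myf5, for Ulk2 and Mfsd13b, which had some of the highest indices, and for Ttn and Actc1, which had the highest and the lowest index among genes of differentiation. Each is the 250 bases before the listed start on the gene's own strand, in GRCm38, with every CG dinucleotide in capitals. The lowest quintile of genes by CpG content differed in index, as described further on. CpG content here is the CG count relative to that expected from the C and G counts.
Pax7, chr4:139833008-139833257, minus strand: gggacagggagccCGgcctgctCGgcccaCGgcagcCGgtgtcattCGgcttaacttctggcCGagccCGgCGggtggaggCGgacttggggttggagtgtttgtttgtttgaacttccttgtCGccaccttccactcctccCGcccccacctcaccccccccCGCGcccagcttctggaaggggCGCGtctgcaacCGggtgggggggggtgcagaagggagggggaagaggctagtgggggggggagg
Myf5, chr10:107486135-107486384, minus strand: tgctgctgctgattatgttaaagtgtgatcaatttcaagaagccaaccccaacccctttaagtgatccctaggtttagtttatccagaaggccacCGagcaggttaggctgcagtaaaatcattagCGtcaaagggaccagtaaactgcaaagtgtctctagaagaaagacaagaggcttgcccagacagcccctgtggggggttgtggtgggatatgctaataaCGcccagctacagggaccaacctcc
Ulk2, chr11:61855074-61855323, minus strand: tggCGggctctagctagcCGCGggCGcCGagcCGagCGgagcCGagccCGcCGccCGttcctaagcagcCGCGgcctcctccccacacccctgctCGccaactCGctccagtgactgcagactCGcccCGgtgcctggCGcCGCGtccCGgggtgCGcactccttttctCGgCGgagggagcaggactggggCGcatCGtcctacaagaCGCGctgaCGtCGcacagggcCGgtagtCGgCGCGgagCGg
Mfsd13b, chr7:120982259-120982508, plus strand: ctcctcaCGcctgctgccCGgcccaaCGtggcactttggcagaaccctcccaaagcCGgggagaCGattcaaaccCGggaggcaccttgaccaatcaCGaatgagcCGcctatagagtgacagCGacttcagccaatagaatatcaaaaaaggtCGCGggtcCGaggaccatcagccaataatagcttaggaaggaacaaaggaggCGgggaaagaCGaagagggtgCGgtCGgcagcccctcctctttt
Ttn, chr2:76982548-76982797, minus strand: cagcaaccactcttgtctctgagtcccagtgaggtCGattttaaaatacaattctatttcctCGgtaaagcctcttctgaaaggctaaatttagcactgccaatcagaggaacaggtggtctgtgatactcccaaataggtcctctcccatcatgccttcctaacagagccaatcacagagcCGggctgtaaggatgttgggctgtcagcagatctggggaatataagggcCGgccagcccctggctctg
Actc1, chr2:114052888-114053137, minus strand: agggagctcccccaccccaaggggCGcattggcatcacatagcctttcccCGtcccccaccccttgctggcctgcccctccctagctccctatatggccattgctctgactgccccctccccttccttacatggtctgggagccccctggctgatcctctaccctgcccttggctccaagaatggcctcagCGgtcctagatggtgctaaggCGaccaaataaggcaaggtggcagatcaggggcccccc
There are 35 CG in the bases before the start of Ulk2 and 16 before Mfsd13b and Pax7, against 4 before Ttn and Actc1 and 3 before Myf5. Taken to 50 bases past the start, their CpG content was 1.10 (Ulk2), 0.81 (Mfsd13b), 0.56 (Pax7), 0.40 (Ttn), 0.22 (Actc1) and 0.16 (Myf5). Over 250 bases before to 50 after the start, Pax7 and Ulk2 hold GGGCGG, Mfsd13b and Ttn hold CCAAT, Myf5 holds TATAAA, and Actc1 holds CCAAT and a CArG box, on either strand.

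The markers differed in index. Pax7 had an index of 1.82, 1.90 and 2.05, which is 0.37 ± 0.17 (log2, SE, n = 3) above the median and did not pass (limma adjusted p = 0.10). Myf5 had 1.05, 1.05 and 0.696, and at -0.69 ± 0.23 it was within 2-fold of the median. Myod1 had 0.566, 0.538 and 0.697, which is 2.49-fold below the median (-1.31 ± 0.23, adjusted p = 0.0035). All 3 libraries placed Pax7 above and Myod1 below the median gene.

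Regulators of myogenic identity mostly had low indices. Of 19 such genes tested 12 were called below and 1 above, and the list's median was -1.07 (log2) against -0.01 over all genes tested. Its median in single libraries was -1.01, -0.97 and -1.36. The list's median gene body level, a value the index contains, was 68.45 TPM, against 16.4 TPM over all genes tested. In the highest quintile of genes by gene body level (median of 55.5 TPM), 37.5% were called below. Six4, a homeobox factor, gave 17.2, 22.4 and 12.9 RPM in the TSS region but 102, 96.8 and 121 TPM in the gene body. Its index was -3.21 ± 0.40 from the median, and the listed start was that of RefSeq. Cdh15, the adhesion molecule M-cadherin, had 4.36, 2.87 and 5.30 RPM against 266, 181 and 112 TPM, with the RefSeq start 408 nt downstream of the listed one and another listed gene overlapping it. Myf6, the fourth myogenic bHLH factor, had 13, 1 and 2 reads in the TSS region and 60.8, 36.7 and 78.8 TPM in the gene body. Itga7, the laminin receptor of muscle, was at -2.30 ± 0.29, and the Notch target Heyl at -2.43 ± 0.31. Eya1, a transcriptional coactivator, was the exception. It gave 88.4, 55.2 and 73.5 RPM but 7.55, 6.32 and 4.71 TPM, an index 7.88-fold above the median (2.98 ± 0.22, adjusted p = 0.00045). Myog, which starts terminal differentiation, gave 657, 869 and 593 RPM and 720.4, 925 and 381.5 TPM, and its index of -0.43 ± 0.23 did not pass (adjusted p = 0.15).

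Genes of myogenic differentiation were transcribed at high levels in these proliferating cultures and also had low indices. The median of 39 genes was 85.7 RPM in the TSS region and 137 TPM in the gene body, against 23.4 RPM and 16.4 TPM over all genes tested. Of the 39, 21 were called below and 1 above, and the list's median was -1.15. Actc1, the cardiac actin made early in differentiation, was the lowest of them (139, 199 and 121 RPM, 635, 917 and 363 TPM, index -2.56 ± 0.31, adjusted p = 0.0011). Myh3, embryonic myosin, was at -1.47 ± 0.27 and the slow troponins Tnni1 and Tnnc1 at -2.02 ± 0.27 and -2.45 ± 0.30. The single gene called above was Ttn, the giant spring protein of the sarcomere, with 1195, 1225 and 1100 RPM and 297, 330 and 239 TPM (1.47 ± 0.17, adjusted p = 0.00095). Chrna1, the acetylcholine receptor subunit, had a TSS region value of 688, 606 and 894 RPM and an index of 0.44 ± 0.17 that did not pass. In Ctrl 3 the gene bodies of Actc1, Myh3 and Myog were lower than in Ctrl 1 and 2, and Chrna1 was higher. Gene bodies of the list had a median of 13.7 kb against 20.8 kb over all genes tested. Their median level also lay above that of the highest quintile of genes by gene body level (55.5 TPM), where 37.5% were called below.

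**Figure D3:**
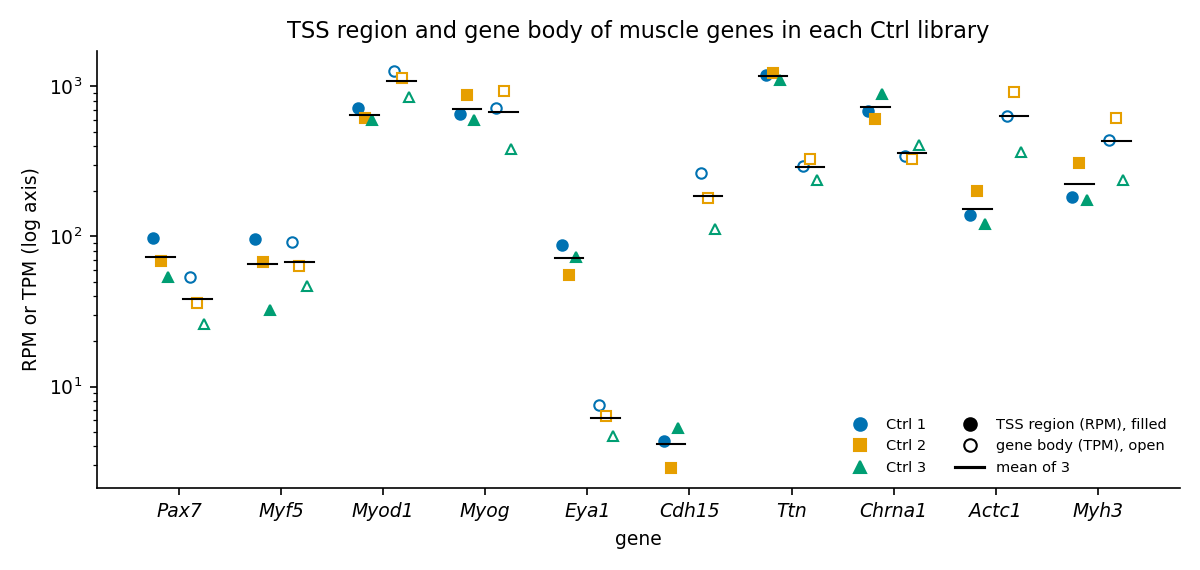
TSS region (filled, RPM) and gene body (open, TPM) values of 10 muscle genes in Ctrl 1, 2 and 3 on a log axis, with the mean of 3 as a bar. The regions have separate scales, so their distance is read against other genes: it is widest for Eya1, with the TSS region above, and for Cdh15, with the TSS region below.

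Immediate-early genes, which respond to growth signals within minutes, had a median index of -0.92. Of 27 tested 12 were called below and 2 above. Egr3, an early growth response factor, was the lowest, with 0.24, 10.34 and 2.08 RPM against 8.43, 22.4 and 13.1 TPM. Jun gave 307, 218 and 256 RPM against 833, 605 and 412 TPM (-1.77 ± 0.28), and Cyr61, a secreted matrix protein, was at -1.85 ± 0.34. Fos and Junb were at 0.48 ± 0.26 and -0.37 ± 0.20 and did not pass. Atf3 and Maff, factors induced by stress, were called above at 2.92 ± 0.29 and 2.16 ± 0.17. The TSS region of Atf3 varied from 41.9 RPM in Ctrl 2 to 217 RPM in Ctrl 3, while its gene body stayed between 5.28 and 10.9 TPM. Feedback genes of signalling pathways had a median of -0.80, with 7 of 20 called below and 0 above. Id3 was the lowest of them (-3.33 ± 0.38), where the RefSeq start lay 325 nt downstream of the listed start. Gene bodies had a median of 2.98 kb in the immediate-early list and 4.64 kb in the feedback list. Of all genes tested with bodies of 2 to 5 kb, 31.4% were called below.

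Hox genes, which set position along the body axis, had a median index of -1.76. Of 27 tested 15 were called below and 0 above, and 25 lay below the median. Gene bodies of this list had a median of 2.34 kb. Hoxb4 had 1, 1 and 7 reads in the TSS region against 38.0, 33.7 and 43.1 TPM in the gene body, and here the listed start was that of RefSeq. Hoxb2 was at -5.66 ± 0.70 with 9, 3 and 7 reads. Hoxa9 had the highest index of the list, 0.53 ± 0.18, with 164, 120.1 and 118 RPM, and its RefSeq start lay at -1181 nt from the listed one, where negative is upstream. Hox genes lie close together in clusters, and whether reads of a neighbouring transcript fell into these gene bodies was not tested.

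Heat shock genes had a median of 0.45, and 16 of 20 were within 2-fold or did not pass. Dnajb1, a co-chaperone, was called above with 3.07, 2.75 and 3.13 (1.01 ± 0.16), and so were Fkbp4 (1.07 ± 0.16) and Hspa4l. Stip1, which links the chaperones HSP70 and HSP90, was called below at -1.97 ± 0.27. Genes of cytosolic ribosomal proteins had a median of 0.37, with 20 of 79 called above (25.3%) and 9 below (11.4%). Rps2 was the highest, with 1018, 772 and 1512 RPM (1.77 ± 0.21). Rpl35 was the lowest with 5.08, 4.02 and 3.6 RPM against 168, 133 and 204 TPM, and its RefSeq start lay 493 nt downstream. The ribosomal median varied from 0.12 in Ctrl 2 to 0.83 in Ctrl 3. Replication-dependent histone genes had a median of 0.35, with 4 of 18 called above and 1 below. Hist1h2bc was called above at 2.74 ± 0.21 and Hist1h3f below at -6.35 ± 0.85.

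The genes encoded by mitochondrial DNA had a median of -2.50, with 5 of 5 called below. Markers of mature fibres had a median of -1.29, with 8 of 9 called below, and mural markers one of -1.08, with 3 of 5 below. Schwann cell markers had a median of 0.76, with 2 of 5 called above and 2 below. Both endothelial markers tested and the single macrophage and lymphocyte markers tested were called below, and of 3 fibro-adipogenic markers 1 was called above and 1 below.

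Lists of the cell cycle and of metabolism lay nearer the median gene. Genes of DNA replication had a median of 0.11, with 6 of 35 called above and 4 below. They ranged from Pole, the leading-strand polymerase (1.90 ± 0.18), to Mcm7, a helicase subunit (-2.48 ± 0.31). Mitosis genes had a median of -0.03 with 7 of 30 above and 6 below, from Spc25 of the kinetochore (2.27 ± 0.19) to the checkpoint kinase Bub1b (-1.43 ± 0.31). For p53 targets the median was -0.07, with 5 of 25 above and 4 below. Rrm2b, the p53-induced ribonucleotide reductase, was at 3.02 ± 0.25. Genes of oxidative phosphorylation (median of -0.03, 9 of 78 above and 11 below), the proteasome (-0.08, 7 of 37 and 9), zinc finger proteins named Zfp (-0.03, 64 of 341 and 71), glycolysis (-0.17, 2 of 16 and 6) and collagens (0.03, 2 of 26 and 2) had medians close to it as well.

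**Figure D4:**
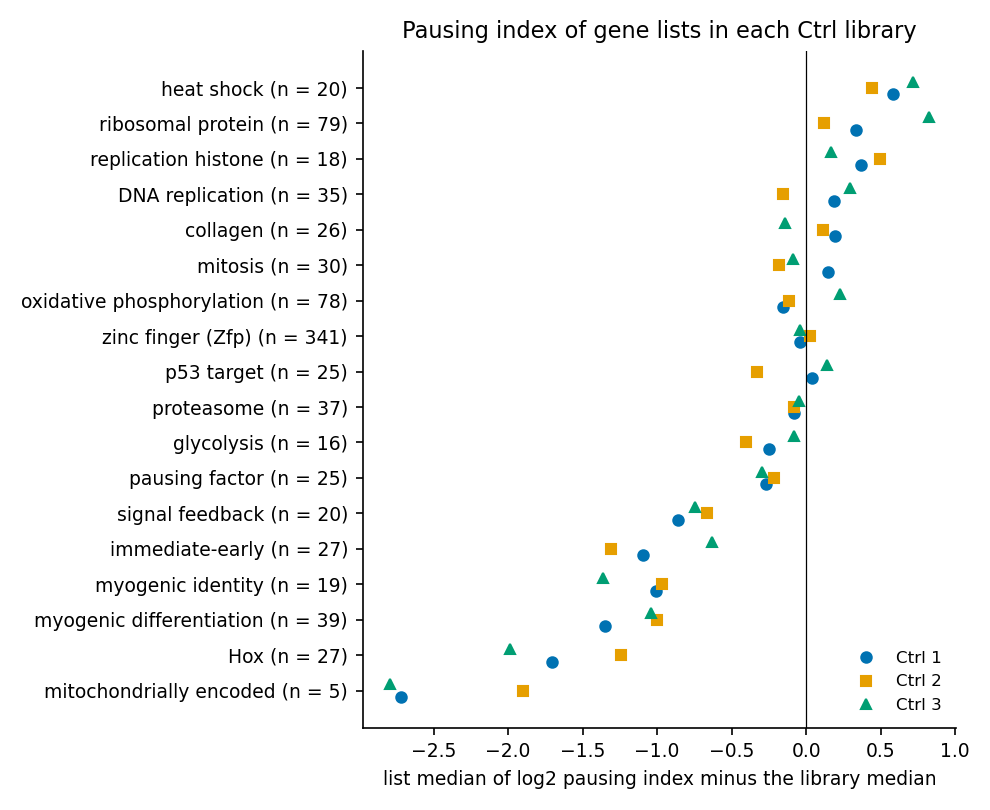
Median log2 pausing index of each gene list minus the library median, in Ctrl 1, 2 and 3, with the number of genes tested. The mitochondrial, Hox, myogenic, immediate-early and signal feedback lists lie left of 0 in every library, and heat shock, ribosomal protein and histone genes right of it.

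The machinery of pausing itself was transcribed in all libraries, and its 25 genes had a median index of -0.24, with 2 called above and 4 below. Gtf2b, a general initiation factor, had the highest, with 319.8, 212 and 263 RPM over 18.3, 15.4 and 22.04 TPM (3.26 ± 0.22, adjusted p = 0.00044), and its RefSeq start lay 202 nt downstream of the listed one. Larp7, which stabilises the 7SK RNA that restrains P-TEFb, was called above (1.16 ± 0.18). On the side of release, Cdk9, the kinase of P-TEFb, was called below (-2.28 ± 0.30) with only 8.47, 12.1 and 5.68 RPM in the TSS region. Hexim1, the inhibitor of P-TEFb, was called below (-2.11 ± 0.29), and so was the elongation factor Supt6 (-2.07 ± 0.28). The 4 NELF genes were within 2-fold of the median, from 0.01 ± 0.30 for Nelfe and 0.11 ± 0.19 for Nelfb to 0.65 ± 0.17 for Nelfcd and 0.86 ± 0.18 for Nelfa. The DSIF subunits Supt4a and Supt5 were at -0.25 ± 0.19 and -0.91 ± 0.21. The cyclins Ccnt1 (0.35 ± 0.21) and Ccnt2 (0.18 ± 0.17), Aff4 (-0.16 ± 0.19), Ell (-0.86 ± 0.21) and Ell2 (-0.24 ± 0.24), all parts of the super elongation complex, were within 2-fold as well. Among the PAF1 complex genes Paf1 was at 0.20 ± 0.17, Leo1 at -0.33 ± 0.20, Ctr9 at -0.17 ± 0.24 and Cdc73 at -0.94 ± 0.23. Mepce (-0.36 ± 0.19), Polr2m (-0.48 ± 0.26), Gtf2f1 (-0.91 ± 0.21) and Tcea1 (0.00 ± 0.23) did not pass both limits of the call.

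The extremes of the index, among genes with at least 10 reads everywhere, are given as a description. Mfsd13b, a transporter-like membrane protein, led with 100.2, 111 and 88.7 RPM over 1.69, 1.96 and 1.82 TPM, an index of 54.96 ± 5.55 (SD, n = 3). Rnls followed with 49.9 ± 11.9 and Vmn1r4 with 40.03 ± 3.799. The listed start of Vmn1r4, a pheromone receptor gene, lay 32491 nt from that of RefSeq. Ulk2, a kinase that starts autophagy, was the most abundant of these genes, with 428, 443 and 303 RPM over 8.71, 11.6 and 9.63 TPM (39.7 ± 8.91). Gm35911, Dtd1, Chst8, Stk32c, Park2 and Slc26a6 completed the 10, with mean indices from 31.9 to 38.5. Park2, the ubiquitin ligase gene known as parkin, spans 1223 kb, and its index was 33.5, 33.4 and 31.7. Rnls, Dtd1, Chst8, Stk32c and Park2 all have gene bodies over 100 kb. Of all genes tested 7.15% have bodies of 100 to 200 kb and 3.64% of 200 kb or more. The limit of 10 reads is reached at a lower TPM in a long gene body than in a short one.

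At the low end Lars2 and Cdk8 had ordinary TSS regions and very large gene bodies. Lars2, a mitochondrial tRNA synthetase, gave 50.8, 39.1 and 43.0 RPM but 3029, 3474 and 799 TPM. Cdk8, a kinase of the Mediator complex, gave 27.4, 14.4 and 17.8 RPM and 3272, 3153 and 755 TPM. These 2 genes held 4.82, 4.76 and 1.33% of all gene body reads in Ctrl 1, 2 and 3. Both gene bodies were lowest in Ctrl 3, while their TSS regions were not. Other genes at the low end were Hist1h3f, a second entry of Raver1, Srrm4, Gm10762, Atn1 and Gadd45gip1. The RefSeq start lay at -144970 nt from the listed start of Srrm4 and at -10647 nt from that of the Raver1 entry. Without replicate 1 the log2 pausing index of Cdk8 was -7.15 from the median (limma adjusted p = 0.060).

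Index and gene structure were related in every library. Genes with short bodies had low indices. Under 2 kb the median was -0.83 (log2, 517 genes), from 2 to 5 kb it was -0.30 (1282), and from 5 to 20 kb it was -0.09 (4220). From 20 to 50 kb it was 0.16 (3308), from 50 to 100 kb 0.12 (1668), from 100 to 200 kb 0.16 (881) and above 200 kb 0.63 (449). The share called above rose from 5.42% under 2 kb to 35.9% above 200 kb, and the share called below went from 44.7% to 14.03%. Across all genes the rank correlation of index and body length was weak (Spearman's rho of 0.216, 0.166 and 0.152). It was 0.297, 0.238 and 0.254 in the third of genes with the lowest CpG content and 0.113, 0.0815 and 0.0240 in the third with the highest. Gene body level fell with length (rho of -0.240, -0.213 and -0.187), while rho was near 0 for the TSS region (-0.0571, -0.0844 and -0.0485). The median TSS region was 20.5 RPM under 2 kb, 26.0 RPM from 20 to 50 kb and 17.4 RPM from 100 to 200 kb. Above 200 kb the median gene gave 13.1 RPM and 5.74 TPM.

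The 5 longest genes did not share 1 pattern. Dmd, the dystrophin gene with a body of 2257 kb, gave 4.84, 7.47 and 3.41 RPM and 4.26, 5.87 and 4.50 TPM, an index of -0.52 ± 0.24 that did not pass. Gm37240, which overlaps another listed gene, was called above at 2.71 ± 0.19, and Dlg2, a synaptic scaffold, was called below on only 3, 1 and 2 TSS region reads. Gm20388 and the listed isoform of Fgfr2, which span 4434 and 2960 kb and overlap other listed genes, were within 2-fold of the median (-0.83 ± 0.27 and 0.24 ± 0.26). The RefSeq start of Fgfr2 lay 2856500 nt downstream of the listed start.

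CpG content around the start, as the ratio of observed to expected CG, separated its lowest quintile of genes from the others. Their median index was -0.61, with 12.9% called above and 37.7% below, and their median TSS region was 9.55 RPM. In the other quintiles the median lay between 0.06 and 0.16. In Ctrl 1, 2 and 3 the lowest quintile was at -0.63, -0.40 and -0.74. GGGCGG, the box bound by Sp factors, was found in 65.9% of promoters of all genes tested, in 69.5% of those called above and in 58.4% of those called below. CCGGAAG, the core of ETS factor sites, was in 18.5%, 20.0% and 11.98%. CCAAT was in 38.6%, 39.5% and 34.5%, and TGACGTCA, the CRE, in 3.56%, 3.98% and 2.602%. CAGCTG, an E-box that myogenic bHLH factors bind, was in 15.2%, 14.3% and 17.0%. TATAAA was in 6.49%, 6.56% and 7.00%, TGACTCA, an AP-1 site, in 3.22%, 2.70% and 3.48%, and the CArG box of SRF in 1.35%, 1.20% and 1.32%. All motifs were sought on both strands, as letters only, and a CArG box can contain the TATAAA letters. This motif on the gene's strand, starting 40 to 22 nt before the start, was found in 0.828% of all genes tested, in 0.996% of those above and in 1.10% of those below. A gene starting on the other strand within 1000 nt upstream was present for 11.6% of all, 11.9% of those above and 8.74% of those below.

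**Figure D5:**
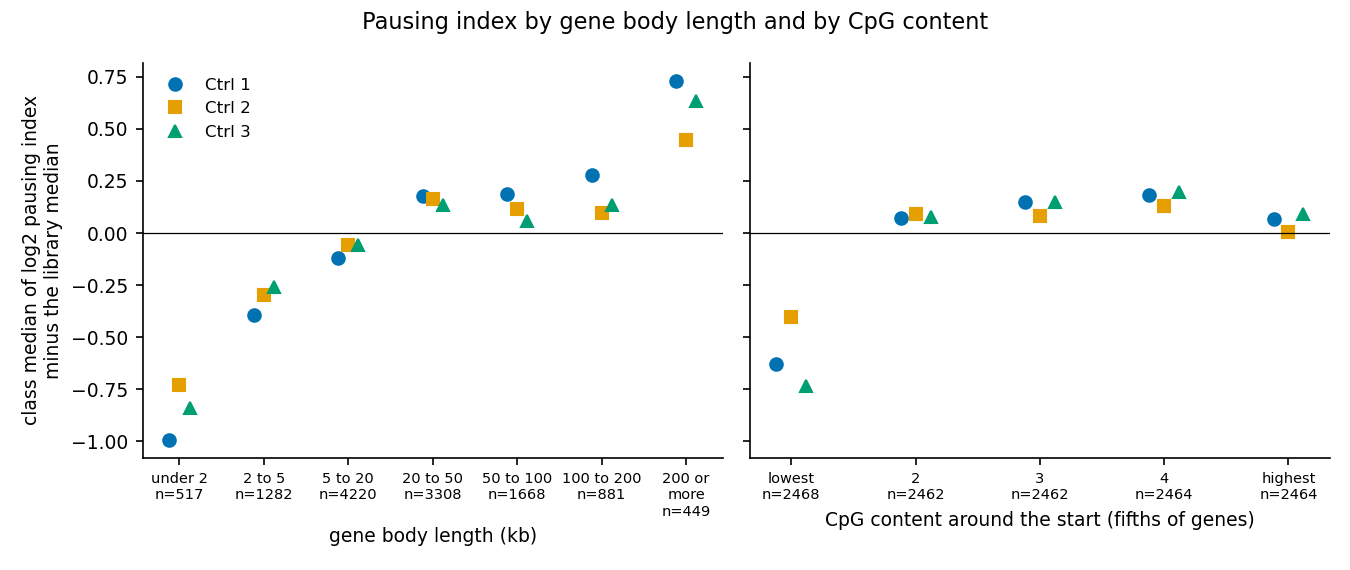
Median log2 pausing index minus the library median in classes of gene body length (left, kb) and of CpG content around the start (right, quintiles of genes), in Ctrl 1, 2 and 3. CpG content is the ratio of observed to expected CG. In each library the median is lowest in the shortest class and highest in the longest, and the quintile with the lowest CpG content lies below 0.

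The index also varied with the distance from the listed start to the RefSeq start. Of 9552 genes with a RefSeq start of the same symbol, 85.2% had it within 100 nt of the listed start, and this share was 89.5% among genes called above and 77.3% among those called below. Where the RefSeq start lay over 400 nt upstream the median index was -1.11 (246 genes), and where it lay over 400 nt downstream it was -0.44 (284). Within 100 nt it was 0.08 (8135 genes). With these 8135 genes alone, 1510 were called above (18.6%) and 1722 below (21.2%). Genes that overlap another listed gene on the same strand had a median of -0.40 (612 genes). Whether the listed start set the low index of single genes was not tested.

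The index fell with gene body level, a value it contains, from a median of 0.41 in the lowest quintile to -0.62 in the highest. Genes called below had a median gene body level of 23.6 TPM and a median TSS region level of 9.04 RPM, and those called above 9.81 TPM and 45.1 RPM.

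Some genes differed widely between the Ctrl libraries. Mest, an imprinted gene, gave 285, 139 and 22.02 TPM in the gene body and 571, 334 and 174 RPM in the TSS region, so its index was 2.00, 2.40 and 7.88. It was called above, but without replicate 3 the log2 pausing index of Mest was 0.59 from the median (limma adjusted p = 0.0578). Cyp1b1 (21.2, 215 and 28.8 TPM), a cytochrome, and Col1a1 (1.75, 11.4 and 1.15 TPM), a fibroblast collagen, were high in Ctrl 2. Trib3 (10.8, 15.0 and 82.9 TPM), a pseudokinase of the stress response, and Spp1 (168, 775 and 1362 TPM), the matrix protein osteopontin, were highest in Ctrl 3. In Cyp1b1, Col1a1, Trib3 and Spp1 the TSS region was highest in the same library as the gene body, and the indices of Trib3 (1.84, 1.92 and 2.43) varied less than either region.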

How the data were processed

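PRO-seq was measured in 3 Ctrl samples of mouse MuSCs. Per the submitters' processing notes, reads were checked with FastQC 0.11.8, trimmed with Trimmomatic 0.39, aligned to GRCm38 with STAR 2.6.1d and cleared of duplicates with Picard 2.18.16. The methods state that a read with several matches was kept at 1 random place. Reads on the gene's strand were counted in the first 400 nt of each isoform and in the rest. Per the methods, isoforms averaging under 0.5 in either region were removed. Of the remaining isoforms of a gene, the 1 with the highest average TSS region value was listed. Per the authors' methods, the deposited TSS region values, called RPM here, were normalised as TPM for sequencing depth and region length before deposit. Every TSS region is 400 nt long, so the length cancels and TPM equals RPM there. The deposited gene body values are TPM. The TSS region values came out as whole reads, within 0.1 of a read, for 99.99, 100 and 99.99% of TSS regions. This check cannot tell RPM from TPM, because all these regions have the same length. Duplicate removal without molecular identifiers can thin strong TSS regions, which was not tested.

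The pausing index is TSS region RPM over gene body TPM. Its log2 minus the library median was tested with limma 3.58.1 (R 4.3.3, intercept only, eBayes with a trend, two-sided, Benjamini-Hochberg over 12325 genes). On 3 simulated libraries, 191 of 200 genes moved by 1.5 (log2) and 200 of 200 moved by 3 were recovered, and 17 unmoved genes were called. The simulated noise was normal with each gene's estimated spread, and every unmoved gene lay exactly at the median. Real indices spread widely around the median, so these counts are not error rates of the calls made here. edgeR 4.0.16 on the recovered reads, an alternative, called 2411 genes above and 2689 below. Lists are described by counts and medians, with no test. CpG content and motifs were read from the genome over 250 bases before to 50 after the listed start. CpG content was the CG count times the window length, over the product of the C and G counts. RefSeq's promoter table (GRCm38.p6) gave the RefSeq starts.

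Named genes were the markers, the 10 highest by each region, the 10 highest and 10 lowest indices with at least 10 reads everywhere, the extremes of each list, the pausing factors, the 5 longest genes and, among genes with at least 10 reads everywhere, the 5 with the most variable gene body. Some of these are not reported here. Further list members were named after their values were seen. The members and lists were chosen with earlier results of these data known. The columns of the mutant were not analysed. The methods do not say whether its libraries entered the averages by which isoforms were removed or listed.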

Additional observations from a re-analysis of the deposited data

How the results depend on the processing

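No paired analysis was possible because only the Ctrl libraries were used and no groups were compared. Genes called above numbered between 1689 and 2503, and genes called below between 1890 and 2796, under the stricter mean of 5, no filter, X and Y left out, bodies under 2000 nt left out, overlapping genes left out, a pseudocount of 0.5, an adjusted p of 0.1, eBayes without a trend, and edgeR. edgeR shared 2378 of 2410 genes above and 2653 of 2734 below. A 1.5-fold limit gave 3665 above and 3619 below. Chosen after seeing the data, RefSeq starts within 100 nt gave 1510 above and 1722 below among fewer genes, and at least 10 reads gave 1926 and 2079. Without 1 replicate each, 2374 to 2558 were called above and 2400 to 2826 below. No gene was called on opposite sides by the main and another setting.

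The median pausing index was 1.43 with the pseudocount, 1.58 with RefSeq starts, 1.61 with at least 10 reads and 10.004 as unscaled reads per nt, against 1.48. The rho of TSS region and gene body was 0.502 with the mean of 5 and 0.543 with at least 10 reads, against 0.640. The rho of pausing index and gene body length was 0.134 with the mean of 5, against 0.178. Without 1 replicate each, these 3 values were 1.46 to 1.49, 0.632 to 0.653 and 0.163 to 0.189. The causes were not tested. Actb (0.83) and Mest (0.59) lost their calls without replicate 3, Tmsb10 (0.97) and Col11a2 without replicate 2, Cdk8 and Esam without replicate 1, Pecam1 without replicate 1 or 3, and Cd55 without replicate 3 or with the pseudocount. Acta1 and Gm20388 were called below without replicate 3, and Cdc73 without replicate 2. Depth limited genes with under 10 TSS region reads, 9.40, 16.4 and 9.09% of genes in Ctrl 1, 2 and 3.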
